A study of Homo sapiens with 9 samples.

Results

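The genes described here are 43 lysosome and autophagy genes, taken as a list of symbols from the 36601 genes counted in U2OS cells, a human osteosarcoma cell line. All 43 were found in every library, and all 43 passed the filter on low counts. They fall into 8 roles: 10 lysosomal proteases, 8 glycosidases and lipid hydrolases, 3 lumenal cofactors and transporters, 7 lysosomal membrane proteins, the enzyme-targeting gene GNPTG, 4 subunits or partners of the V-ATPase proton pump, 3 nutrient-signalling genes and transcription factors, and 7 autophagy genes.

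Lysosomes are acidic organelles in which hydrolases break down proteins, lipids and glycans. Most soluble hydrolases are marked with mannose 6-phosphate in the Golgi and sorted to the lysosome, and autophagy delivers cytoplasm to it inside membranes coated with proteins of the ATG8 family. The transcription factors TFEB and TFE3 bind a palindromic E-box, the CLEAR element, in the promoters of many of these genes and are held in the cytoplasm by nutrient signalling at the lysosomal surface.

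The cells expressed RPB1, the catalytic subunit of RNA polymerase II, with an N-terminal HaloTag, an enzyme that binds synthetic dyes, or an N-terminal Dendra2 fluorescent protein. Its C-terminal domain (CTD), a tail of heptapeptide repeats, held 25, 52 or 70 repeats (25R, 52R, 70R), and 52 is the human wild-type length. Single-cell 3' libraries were made from 6 lines, HaloTag-RPB1-25R, HaloTag-RPB1-52R, HaloTag-RPB1-70R, Dendra2-RPB1-25R, Dendra2-RPB1-52R and Dendra2-RPB1-70R, written below without RPB1. All 6 lines had been grown for 6 days with 1 µg/ml of α-amanitin, the mushroom toxin that blocks the cells' own polymerase, so that no untreated and no untagged cells are among the samples. Each genotype was 1 library. The labels do not say how many clones a line holds, and their titles list 2 sequencing runs for each HaloTag and 1 for each Dendra2 library, so tag, line and number of runs cannot be told apart.

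After filtering, the HaloTag libraries held 3483 (25R), 3705 (52R) and 4677 (70R) cells, and the Dendra2 libraries 3121, 2747 and 2718. Each library had 52553686 to 58442223 unique molecular identifiers (UMIs, counts of single RNA molecules). The median depth was 13466 ± 2605 UMIs per cell in HaloTag and 17588 ± 1593 in Dendra2 libraries (SD, n = 3), and the mean mitochondrial share was 8.46% ± 1.25 and 5.91% ± 0.326. Any pair of libraries shared at most 7 of the 20942 cell barcodes. The labels call the cells epithelial: KRT8 (152 to 565 CPM, the TMM-scaled counts-per-million of a library) and KRT18 (741 to 1250 CPM) were present in all libraries, whereas EPCAM (0.216 to 7.85 CPM) was low and CDH1 (0.106 to 0.422 CPM) and KRT19 (0 to 0.281 CPM) were nearly absent. Of 5 osteoblast and mesenchymal markers VIM (2495 to 3735 CPM) was the highest and COL1A2 (0 to 0.198 CPM) was nearly absent. Lysosomal genes are also abundant in macrophages and osteoclasts. The summed level of 7 markers of those cells was 0.847 to 3.29 CPM in HaloTag and 0.762 to 1.16 CPM in Dendra2 libraries. Of these, PTPRC was at 2.37 CPM in HaloTag-70R and 0.131 to 0.642 CPM elsewhere. ACP5 was at 0.540 CPM in HaloTag-70R and 0.0338 to 0.0938 CPM elsewhere. CD68 ranged from 0.252 to 1.18 CPM, and TYROBP was seen as 1 UMI in all libraries together. The 4 melanocyte markers, listed because GPNMB and CD63 are abundant in pigment cells, summed to at most 0.456 CPM in any library, and TYR was at 0.

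The promoter sequences are given first because the CLEAR element is known from the promoters of many lysosomal genes. Promoter windows from RefSeq (GRCh38.p14, 250 bases before to 50 bases after the start site) were matched for 34 of the 43 genes. ASAH1, ATP6V1A, ATP6V1H, CTSB, CTSK, HEXA, LAMP2, PSAP and UVRAG had no window. The full CLEAR palindrome, TCACGTGA with G before it and C after it, reads the same on both strands and was found in 3 of 34 windows (8.82%) and in 0.381% of the 27294 promoters of the same length. Its 8-letter core TCACGTGA, which every full palindrome also holds, was found in 6 of 34 (17.6%) against 1.03%, and the bare E-box CACGTG, held by both, in 11 of 34 (32.4%) against 7.43%. The 27294 promoters include those of genes that did not pass the filter on low counts. Among genes that passed it and had a window, 85 held the full palindrome and 11901 did not. For the core these counts were 209 and 11777, and for the bare E-box 1168 and 10818. The 3 genes with the full palindrome and 3 further genes described below are shown 5′ to 3′ on the strand of the gene, with 1 motif of each in capitals.
GNPTG (chr16:1351897-1351930, plus strand): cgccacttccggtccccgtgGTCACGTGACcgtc
MCOLN1 (chr19:7522588-7522623, plus strand): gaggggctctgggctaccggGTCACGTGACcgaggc
GAA (chr17:80101528-80101577, plus strand): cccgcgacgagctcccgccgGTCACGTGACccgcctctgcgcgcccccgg
LAMP1 (chr13:113297190-113297237, plus strand): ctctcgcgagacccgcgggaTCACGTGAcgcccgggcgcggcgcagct
CTSA (chr20:45891289-45891334, plus strand): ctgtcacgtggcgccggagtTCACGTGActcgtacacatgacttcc
CTSD (chr11:1763949-1763994, minus strand): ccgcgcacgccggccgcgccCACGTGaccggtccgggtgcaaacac

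The first base of the palindrome lay 14 bases before the annotated start site in GNPTG, 16 bases before it in MCOLN1 and 33 bases before it in GAA, which has another copy 78 bases before its start. Windows of GNPTG, MCOLN1, LAMP1 and CTSA also held further sites, and that of CTSA, a bare E-box, stands in lower case in its stretch. Windows of LAMTOR1, NEU1, CTSF and CD63 held the bare E-box, and ATP6V0D1 held the 8-letter core. A match is a run of letters and not a measured binding site.

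Between tags, most of these genes had higher levels in the HaloTag lines. In HaloTag-25R, HaloTag-52R and HaloTag-70R the 43 genes together took 0.538%, 0.469% and 0.499% of all UMIs, and in Dendra2-25R, Dendra2-52R and Dendra2-70R 0.307%, 0.375% and 0.385%. The 3 HaloTag libraries lay above the 3 Dendra2 libraries, with means of 0.502% ± 0.0344 and 0.355% ± 0.0425 (SD, n = 3), a ratio of 1.41. Leaving out the most abundant of them, CD63, gave a ratio of 1.43, and counting only UMIs of nuclear genes gave 1.45. In cells of 10000 to 20000 UMIs, where depth is matched more closely, the ratio was 1.36.

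**Figure D1:**
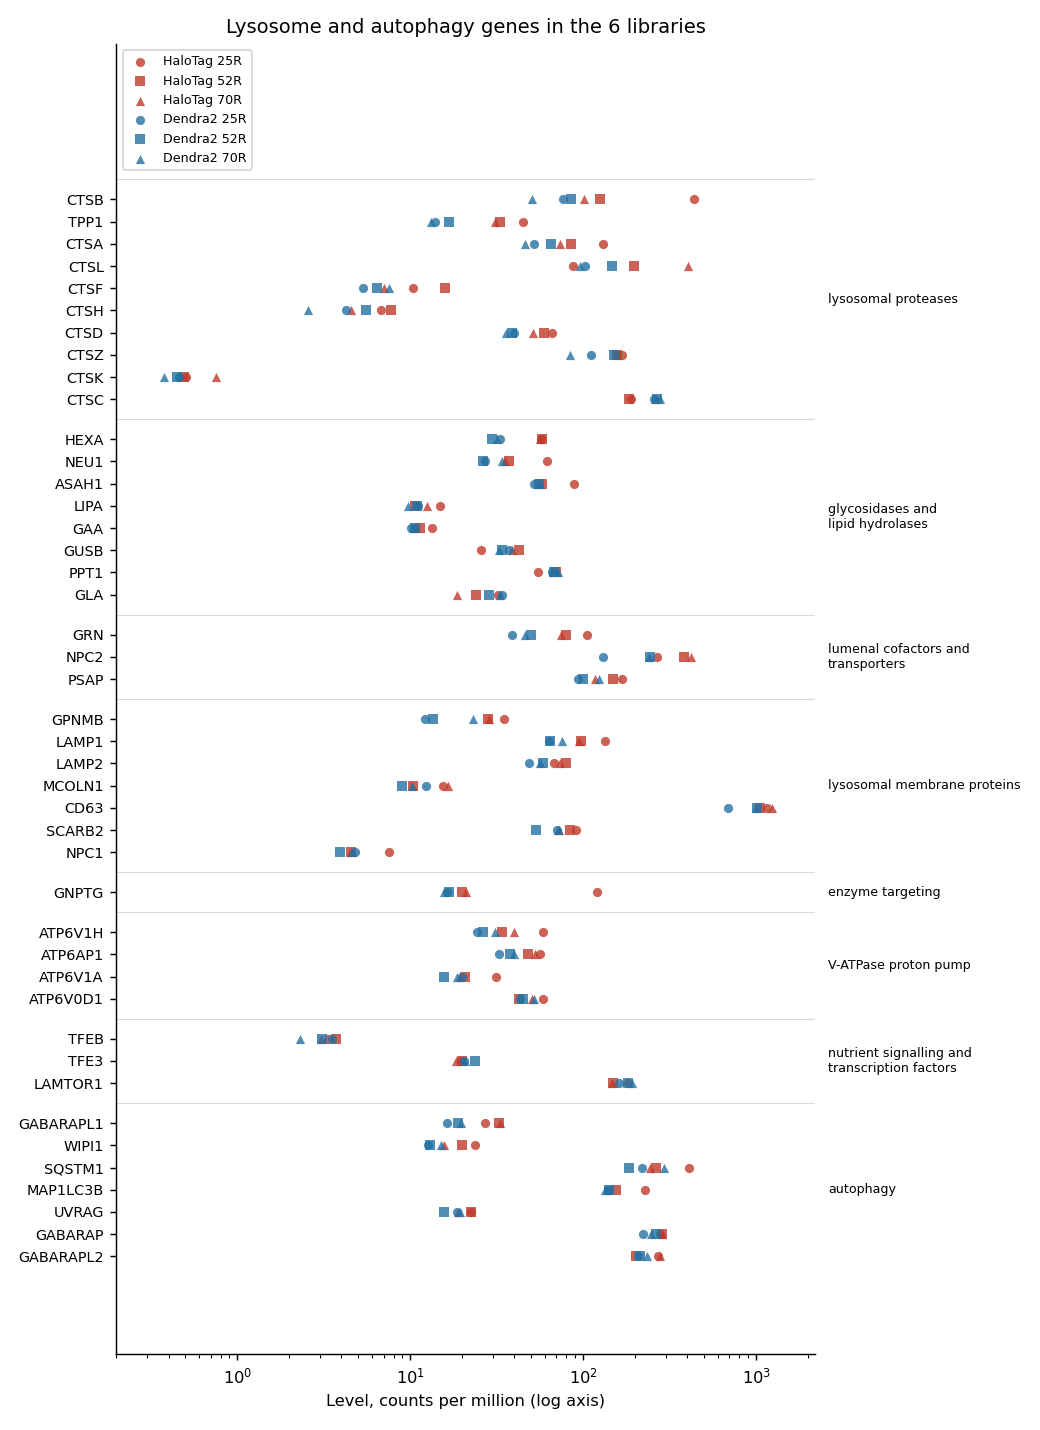
Level of each of the 43 genes (rows, grouped by role) in each of the 6 libraries, in TMM-scaled CPM on a log axis, with red points for HaloTag, blue points for Dendra2 and the marker shape for CTD length. Red points lie to the right of blue ones in most rows, the HaloTag 25R point of GNPTG stands alone at 121 CPM, and CD63 has the highest levels, from 685 to 1233 CPM.

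Single genes were tested with edgeR's quasi-likelihood fit of summed UMIs per library on tag and CTD length over 18069 genes. With 1 library per genotype, the error in this fit is the disagreement between libraries that tag and CTD length do not explain, with 2 residual degrees of freedom. The fit moderates that error with the spread of all genes, so a p-value does not rest on the gene's own libraries alone. Of the 43 genes 0 passed an adjusted p of 0.05 (Benjamini-Hochberg), where 0.327% of all genes tested did. The fitted HaloTag level was above the Dendra2 level for 38 of 43 genes, against 52.5% of all genes tested, and the median log2 difference was 0.43 against 0.03. At an unadjusted p under 0.05, 19 of the 43 were higher and 1 was lower in HaloTag, where 10.4% and 9.2% of all genes were. The 3 HaloTag libraries did not overlap the 3 Dendra2 libraries for 22 genes that were higher and for 1 that was lower, against 12.7% and 11.6% of all genes. DESeq2's Wald test of the same design called 10 of the 43 higher (TPP1, HEXA, NPC2, GABARAPL1, GRN, CTSB, CTSD, GPNMB, CTSA and LAMP1), where it called 5.92% of all genes.

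The difference was present within each pair of libraries of equal CTD length, at different sizes. The median log2 difference of the 43 genes was 0.67 between the 25R libraries, 0.36 between the 52R libraries and 0.31 between the 70R libraries. In all 3 pairs 26 genes were higher in HaloTag and 3 (CTSC, GLA and TFE3) were lower, where 23.7% and 21.2% of all genes were. Without HaloTag-25R the fitted median was 0.31, and without Dendra2-25R it was also 0.31. Both fits take the tag difference from the same 52R and 70R pairs, so their agreement was fixed by the design. They do not show which 25R library carried the larger difference. Depth and mitochondrial share differed between tags as given above: the median was 0.36 in cells of 10000 to 20000 UMIs and 0.43 in cells with at most 10% mitochondrial UMIs and at least 1000 genes.

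**Figure D2:**
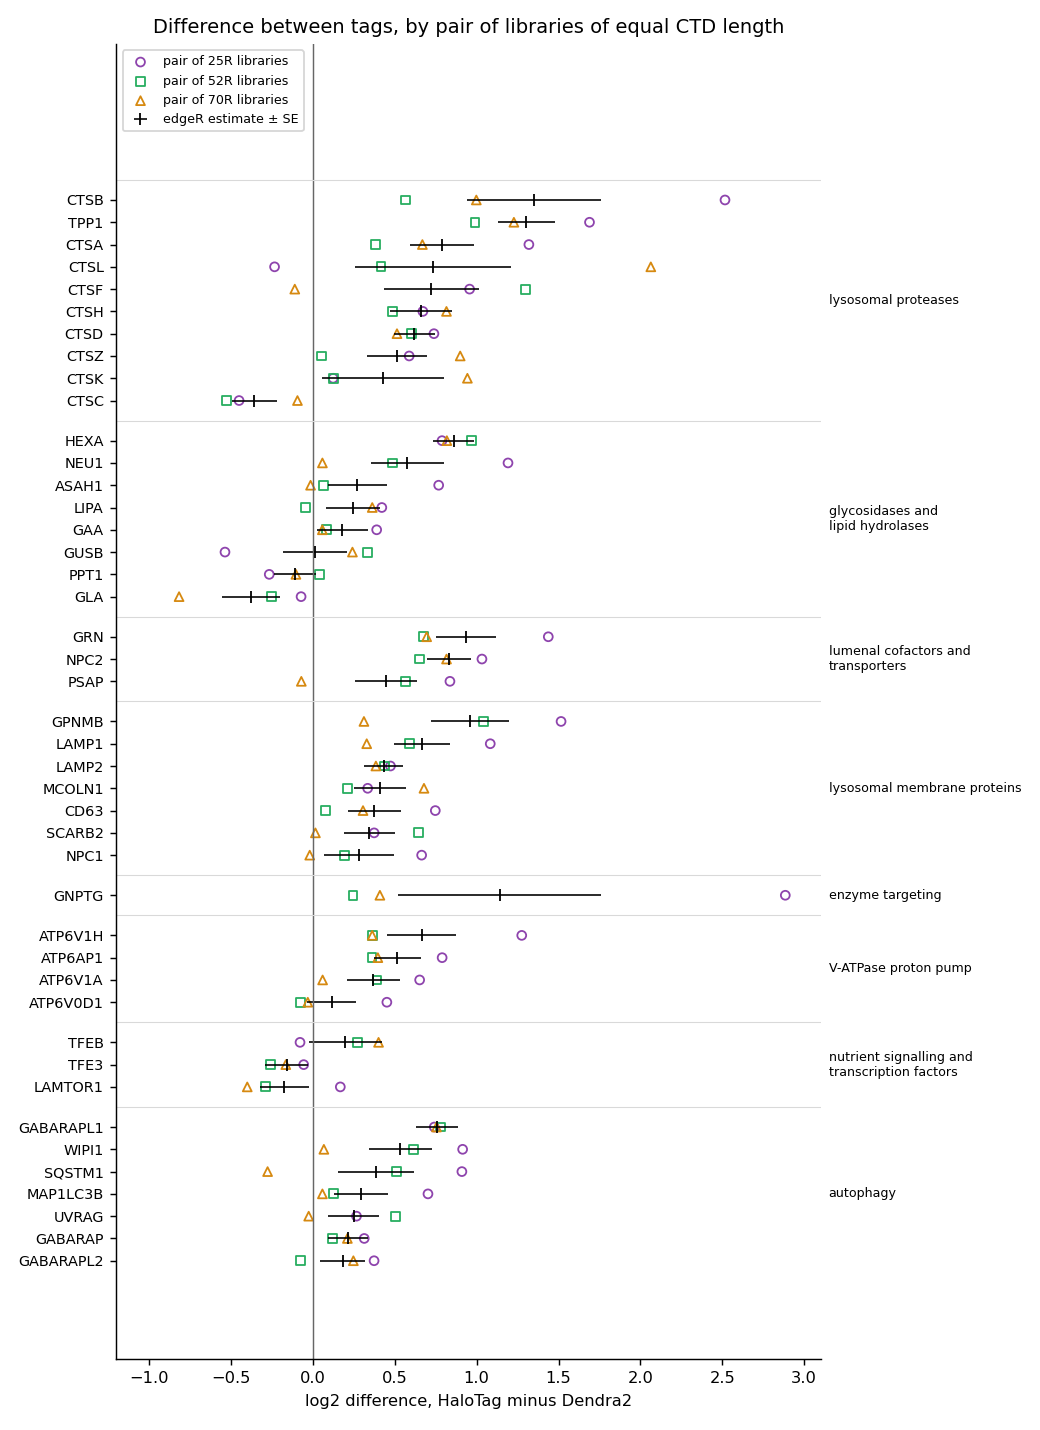
Log2 difference in level, HaloTag minus Dendra2, for each of the 43 genes (rows, grouped by role), with open symbols for the 3 pairs of libraries of equal CTD length and a black tick with its bar for the edgeR estimate ± SE. Of the 43 estimates 38 lie right of 0, and the 3 symbols of GABARAPL1, HEXA and CTSD lie close together while those of GNPTG, CTSL and CTSB spread widely.

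Of the 10 lysosomal proteases 9 had a higher fitted level in HaloTag, with a median log2 difference of 0.69. TPP1, which removes tripeptides from the N terminus of proteins (ENSG00000166340, chr11:6612768-6619448, minus strand), measured 44.7, 33.2 and 30.8 CPM in HaloTag-25R, HaloTag-52R and HaloTag-70R and 13.8, 16.7 and 13.1 CPM in Dendra2 in the same order. Gene positions are those of GENCODE 44 on GRCh38. No Dendra2 library reached the lowest HaloTag library, and the log2 difference was 1.30 (SE 0.17, edgeR adjusted p = 0.0529), the lowest adjusted p among the 43 genes. CTSB, the cysteine protease cathepsin B, stood at 438.6, 125.6 and 101.02 CPM in HaloTag and at 76.6, 84.9 and 50.6 CPM in Dendra2. The groups did not overlap, but the 25R library lay far above the other HaloTag libraries. The log2 difference of CTSB was 1.35 (SE 0.41, edgeR adjusted p = 0.190), and 0.76 without HaloTag-25R, an estimate that rests on the 52R and 70R pairs.

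CTSD, the aspartic protease cathepsin D, was at 66.1, 59.2 and 51.0 CPM in HaloTag and 39.6, 39.0 and 35.7 CPM in Dendra2, a log2 difference of 0.62 (SE 0.12, edgeR adjusted p = 0.106). CTSA, a carboxypeptidase that also protects neuraminidase, was at 130.4, 85.4 and 72.9 CPM against 52.2, 65.5 and 45.9 CPM. Both genes had no overlap between tags. CTSZ (155.7 to 167.6 CPM against 83.5 to 150.7 CPM) also had none, although its difference between the 52R libraries was only 0.05 on the log2 scale. CTSF and CTSH, other cysteine proteases, had log2 differences of 0.72 and 0.66 with overlapping libraries. CTSK, the collagenase of osteoclasts, was barely detected, with 0.494 to 0.755 CPM in HaloTag and 0.375 to 0.462 CPM in Dendra2. CTSC, which activates serine proteases, ran the other way: it was at 187.7, 184.6 and 258.6 CPM in HaloTag and 256.6, 265.8 and 276.2 CPM in Dendra2, a log2 difference of −0.36 (SE 0.14, edgeR adjusted p = 0.231).

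Among the 8 glycosidases and lipid hydrolases 6 had a higher fitted level in HaloTag, and the median log2 difference was 0.21. HEXA (ENSG00000213614, chr15:72340924-72376420, minus strand), the α subunit of β-hexosaminidase, was at 56.8, 57.9 and 56.0 CPM in HaloTag and 32.9, 29.6 and 31.8 CPM in Dendra2. Its libraries hardly varied within a tag (56.9 ± 0.956 and 31.4 ± 1.67 CPM, SD, n = 3), and the log2 difference was 0.86 (SE 0.12, edgeR adjusted p = 0.0636). NEU1, the lysosomal neuraminidase, was at 62.1, 37.0 and 35.1 CPM against 27.2, 26.5 and 33.7 CPM, with the 70R libraries nearly level. The ceramidase ASAH1, the glycogen enzyme GAA and the lipase LIPA had log2 differences of 0.27, 0.18 and 0.25. GUSB lay close to 0 (0.01), with a sign that varied between settings. PPT1 (−0.11) and the α-galactosidase GLA (−0.38) lay below 0, and GLA was lower in HaloTag in each of the 3 pairs.

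The 3 lumenal cofactors and transporters were all higher in the fit, with a median of 0.83. NPC2 (ENSG00000119655, chr14:74476192-74494177, minus strand), which binds cholesterol in the lumen, was at 267.0, 382.9 and 420.3 CPM in HaloTag and 130.5, 243.8 and 238.7 CPM in Dendra2. Its log2 difference was 0.83 (SE 0.13, edgeR adjusted p = 0.0750), at 0.65 to 1.03 in the 3 pairs. GRN, the precursor of the granulins, was at 104.5, 79.2 and 74.7 CPM against 38.6, 49.6 and 46.2 CPM, a log2 difference of 0.94 (SE 0.18, edgeR adjusted p = 0.103). PSAP, the precursor of the saposins that present lipids to hydrolases, was at 167.5, 148.0 and 117.0 CPM against 93.8, 99.9 and 122.9 CPM, so that its 70R libraries did not follow the other pairs.

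All 7 lysosomal membrane proteins had a higher fitted level in HaloTag, with a median of 0.41. LAMP1, the most used marker of the lysosomal membrane, was at 134.0, 96.6 and 94.9 CPM against 63.2, 64.2 and 75.5 CPM, and LAMP2, a receptor of chaperone-mediated autophagy, at 67.4, 79.5 and 72.9 CPM against 48.5, 58.7 and 55.9 CPM. GPNMB, a glycoprotein that is raised in stressed lysosomes of many cell types, was at 35.0, 28.0 and 28.6 CPM against 12.2, 13.6 and 23.1 CPM. Its log2 difference was 0.96 (SE 0.24, edgeR adjusted p = 0.132), with 1.52 between the 25R libraries and 0.31 between the 70R libraries. CD63, a tetraspanin of late endosomes that took 21.1% to 26.1% of the UMIs of the 43 genes in each library, was at 1150, 1058 and 1233 CPM against 685, 1005 and 997 CPM. The groups of CD63 did not overlap, but the 52R libraries differed by only 0.07 on the log2 scale. SCARB2, the receptor that carries glucocerebrosidase, MCOLN1, a calcium channel, and the cholesterol exporter NPC1 had log2 differences of 0.35, 0.41 and 0.28.

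GNPTG (ENSG00000090581, chr16:1351931-1365737, plus strand), the γ subunit of the enzyme that adds the mannose 6-phosphate mark, was at 120.8, 19.96 and 20.9 CPM in HaloTag and 16.3, 16.8 and 15.7 CPM in Dendra2. The tags did not overlap, but 1 library carried most of the difference: its log2 value was 1.14 (SE 0.62, edgeR adjusted p = 0.384) with all libraries and 0.31 without HaloTag-25R.

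For the V-ATPase, which acidifies the lumen, all 4 genes were above 0, with a median of 0.44. ATP6V1H was at 58.7, 34.1 and 39.6 CPM against 24.2, 26.5 and 30.8 CPM, and the accessory subunit ATP6AP1 at 56.4, 48.1 and 52.7 CPM against 32.6, 37.5 and 40.0 CPM. Neither gene overlapped between tags. ATP6V1A and ATP6V0D1 overlapped, with log2 differences of 0.37 and 0.11, the latter −0.078 without Dendra2-25R.

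The 3 genes of nutrient signalling and transcription had 1 fitted difference above 0 and 2 below it. TFEB was scarce, at 3.33, 3.71 and 3.06 CPM in HaloTag and 3.52, 3.07 and 2.31 CPM in Dendra2, a log2 difference of 0.20 (SE 0.22, edgeR adjusted p = 0.652). TFE3 was at 19.7, 19.9 and 18.5 CPM against 20.5, 23.8 and 20.7 CPM, the only gene of the 43 whose HaloTag libraries all lay below the Dendra2 libraries. Its log2 difference was −0.16 (SE 0.13, edgeR adjusted p = 0.536). LAMTOR1, which anchors mTORC1 signalling to the lysosome, differed by −0.17.

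All 7 autophagy genes had a fitted difference above 0, with a median of 0.29. GABARAPL1, a member of the ATG8 family, was at 27.1, 32.4 and 33.1 CPM in HaloTag and 16.2, 18.8 and 19.6 CPM in Dendra2. Its 3 pairs were nearly equal, at 0.74, 0.78 and 0.75, and the fitted log2 difference was 0.76 (SE 0.13, edgeR adjusted p = 0.0823). Reads of GABARAPL1 may be shared with its near-identical copy GABARAPL3. The other ATG8 genes differed less, by 0.29 for MAP1LC3B, 0.21 for GABARAP and 0.18 for GABARAPL2, with adjusted p of 0.367, 0.377 and 0.503 (edgeR). SQSTM1, the cargo receptor p62, was at 408.7, 262.6 and 243.1 CPM against 217.5, 184.2 and 294.6 CPM, higher in HaloTag at 25R and 52R and lower at 70R. WIPI1, which binds the forming autophagosome, was at 23.8, 19.8 and 15.7 CPM against 12.6, 12.95 and 15.0 CPM without overlap. UVRAG, a partner of Beclin in autophagosome maturation, differed by 0.25.

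A wider list of 142 further lysosome and autophagy genes, 140 of them tested, showed the same count of calls, 0 by edgeR. Of these 109 were above 0, with a median of 0.21, against 52.5% and 0.03 for all genes tested. At an unadjusted p under 0.05, 39 were higher and 2 lower, where 10.4% and 9.2% of all genes were. Its hydrolases had 29 of 31 genes above 0 (median 0.37), its membrane proteins and transporters 21 of 23 (0.22), its V-ATPase subunits 9 of 11 (0.21) and its autophagy genes 31 of 47 (0.11). The largest positive differences at 10 CPM or more included FUCA1, an α-fucosidase (1.04, edgeR adjusted p = 0.0989), and SLC17A5, the sialic acid exporter (0.94, 0.0989). FUCA1 was at 33.8, 18.4 and 20.99 CPM in HaloTag and 12.3, 12.4 and 9.73 CPM in Dendra2, with no overlap. The 3 largest negative differences at 10 CPM or more were BNIP3, a mitophagy receptor (−0.61, edgeR adjusted p = 0.163), AP1S1, an adaptor subunit (−0.37, 0.260), and the protease CTSV (−0.32, 0.409).

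Genes with a promoter motif were compared as a description. The 6 genes with TCACGTGA had a median log2 difference between tags of 0.54, all 6 above 0, and the 28 matched genes without it 0.38, with 23 above 0. Among all tested genes with a promoter window the 209 that held the core had a median of 0.06 and the others −0.02. The 3 genes with the full palindrome had a median of 0.41 against 0.38 for the other 31, with 3 and 26 above 0. The 11 with the bare E-box had 0.58 against 0.35 for the other 23, with 10 and 19 above 0. Among all tested genes with a window, the 1168 with the bare E-box had a median of −0.008 and the others −0.015. The 85 with the full palindrome had 0.04 and the others −0.01.

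The 3 comparisons between CTD lengths share libraries with each other and are given side by side. The 43 genes showed no common direction across both tags in any of them. Comparing 25R with 52R, 0 of 43 passed edgeR's adjusted p of 0.05 (0.0443% of all genes did), and 30 of 43 were above 0 (50.7% of all genes). At an unadjusted p under 0.05, 1 was higher (MCOLN1) and 1 lower (NPC2), where 6.07% and 6.66% of all genes were. The median was 0.09 in the fit, 0.23 within HaloTag and −0.06 within Dendra2. Comparing 70R with 52R, 0 of 43 passed (0% of all genes) and 24 were above 0 (49.3%). At an unadjusted p under 0.05, 0 were higher and 1, CTSH, was lower (2.03% and 2.62% of all genes), and the medians were −0.07 within HaloTag and 0.06 within Dendra2. Comparing 70R with 25R, 0 of 43 passed (0% of all genes) and 15 were above 0 (48.1%). At an unadjusted p under 0.05, 1 was higher (NPC2) and 2 were lower (CTSB and CTSH; 6.15% and 6.09% of all genes), and the medians were −0.31 within HaloTag and 0.05 within Dendra2. DESeq2's Wald test called 1 gene, NPC2, between 25R and 52R (2.55% of all genes), 0 between 70R and 52R (0.354%), and 2, NPC2 and CTSB, between 70R and 25R (2.37%).

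The comparisons with 25R differed between the HaloTag and the Dendra2 series. It was the highest of the 6 libraries for 24 of the 43 genes, and the share over all genes is not given here. Without HaloTag-25R, so that only Dendra2-25R stood for the short CTD, the median for 25R against 52R was −0.09. That for 70R against 25R was then 0.10. Leaving out Dendra2-25R in place of HaloTag-25R, so that only HaloTag-25R stood for the short CTD, gave a median of 0.34 for 25R against 52R. Each of these fits rests on the 25R library that remained, so the medians do not show which 25R library stood apart.

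GNPTG in HaloTag-25R was 6.73 times the mean of the other 5 libraries, which lay between 15.7 and 20.9 CPM. The fitted log2 difference of 25R against 52R was 1.47 (SE 0.76, edgeR adjusted p = 0.495), made of 2.60 within HaloTag and −0.04 within Dendra2, and it was −0.016 without HaloTag-25R. Genes beside it on chromosome 16 did not share its level: TSR3, which starts next to the GNPTG start on the other strand, was 1.22 times the mean of the others and C16orf91 1.11 times. UNKL, whose annotated span overlaps the 3' part of GNPTG on the other strand, was at 13.6 CPM in HaloTag-25R and 9.38 to 15.2 CPM elsewhere. CTSB in HaloTag-25R was 5.00 times the mean of the others, while its neighbours FDFT1 and NEIL2 were 1.43 and 1.33 times. The difference of 70R against 25R for CTSB was −1.47 (SE 0.50, edgeR adjusted p = 0.364), made of −2.12 within HaloTag and −0.60 within Dendra2, and it was −0.47 without HaloTag-25R.

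CTSL, the cysteine protease cathepsin L, varied the opposite way in HaloTag, with 86.8 CPM at 25R, 195.3 at 52R and 402.4 at 70R. In Dendra2 it was at 102.1, 146.4 and 96.2 CPM, with the 52R library highest. The fitted difference of 70R against 25R was 1.13 (SE 0.59, edgeR adjusted p = 0.512), made of 2.21 within HaloTag and −0.09 within Dendra2. Between tags the 70R libraries differed by 2.06, against −0.23 at 25R and 0.42 at 52R. CTSL (ENSG00000135047) lies at chr9:87724051-87731469 on the plus strand.

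NPC2 was lowest at 25R in both tags. Its level at 25R against 52R was −0.52 in HaloTag and −0.90 in Dendra2 on the log2 scale, and that at 70R against 52R was 0.13 and −0.03. The fitted difference of 25R against 52R was −0.71 (SE 0.16, edgeR adjusted p = 0.240), and −0.87 without HaloTag-25R. That of 70R against 25R was 0.76 (SE 0.16, edgeR adjusted p = 0.223). MCOLN1 was higher at 25R than at 52R in both tags, by 0.57 and 0.45, a fitted difference of 0.51 (SE 0.20, edgeR adjusted p = 0.366), and ATP6V1A by 0.59 and 0.33 (fitted 0.47, adjusted p = 0.395).

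The other named differences between CTD lengths were smaller. Between 70R and 52R, CTSB (−0.57) and CTSA (−0.38) were negative and MCOLN1 (0.43) positive in both tags, and CTSL (0.36) was of opposite sign. CTSZ (−0.43) and GPNMB (0.43) rested on Dendra2, with −0.85 and 0.76 there and −0.0028 and 0.033 within HaloTag, all with edgeR adjusted p of at least 0.965. CTSH, which was below the level for naming at 2.57 to 7.78 CPM, was chosen after its values were seen: its level at 70R against 52R was −0.77 in HaloTag and −1.10 in Dendra2 (edgeR adjusted p = 0.965). Between 70R and 25R, CTSA (−0.54) and GLA (−0.40) had edgeR adjusted p of 0.431 and 0.501.

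**Figure D3:**
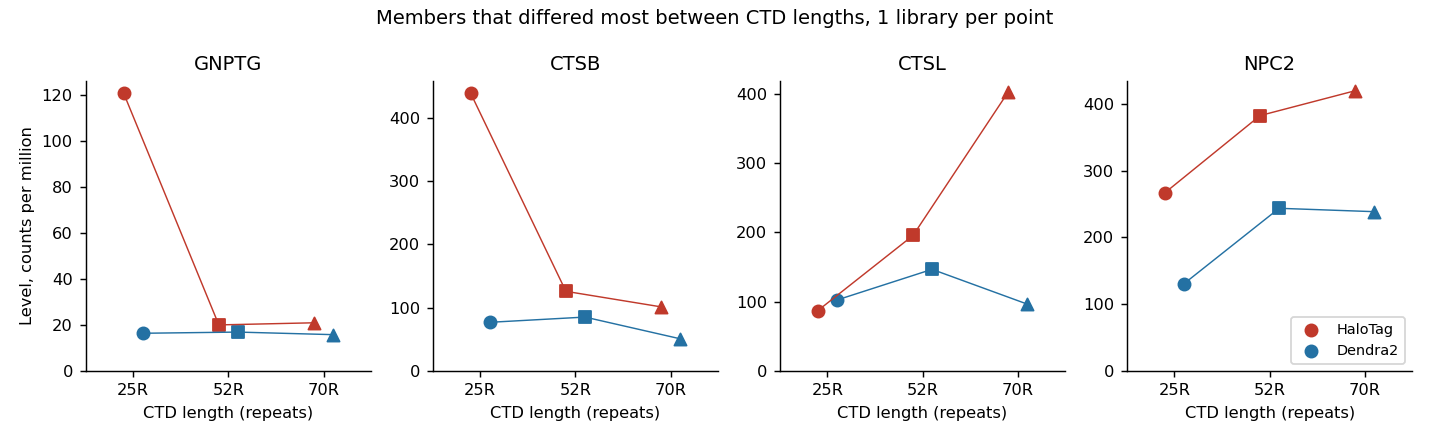
Level of GNPTG, CTSB, CTSL and NPC2 in CPM (vertical axes from 0) at each CTD length, with 1 point per library, red for HaloTag and blue for Dendra2. GNPTG and CTSB stand high in HaloTag-25R alone, at 121 and 439 CPM, CTSL is highest in HaloTag-70R, and NPC2 is lowest at 25R in both tags.

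The cells themselves showed how these levels were spread. Each cell was thinned to 5000 UMIs, which left out 34 to 217 shallower cells per library. A cell then held a median of 25, 22 and 23 UMIs of the 43 genes in the HaloTag libraries (25R, 52R, 70R) and 15, 18 and 18 in the Dendra2 libraries. The tenth percentile was 14 to 17 in HaloTag and 10 to 12 in Dendra2, and the ninetieth 37 to 42 against 22 to 28, so that the whole distribution lay higher in HaloTag and not only its upper end.

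GNPTG was seen in 40.7% of thinned HaloTag-25R cells (exact 95% binomial interval 39.0% to 42.4%) and in 7.29% to 10.5% of cells elsewhere. Before thinning the shares were 71.9% and 21.1% to 26.3%. Its variance over mean in HaloTag-25R was 1.29 and 0.983 to 1.04 elsewhere, where counting noise alone gives about 1. CTSB was seen in 76.1% of thinned HaloTag-25R cells and in 21.1% to 41.2% elsewhere, with 95.3% and 55.6% to 71.5% before thinning. Its variance over mean was 3.28 there, 2.05 and 1.86 in the other HaloTag libraries and 1.19 to 1.28 in Dendra2. At least 5 UMIs of CTSB were found in 14.7% of thinned HaloTag-25R cells, in 1.43% and 0.785% of the other HaloTag libraries and in 0.0751% to 0.184% of Dendra2 cells.

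CTSL was spread unevenly over cells in HaloTag-52R and HaloTag-70R. Its variance over mean was 6.44 in HaloTag-52R and 8.52 in HaloTag-70R, and 1.45 to 3.22 in the other libraries. At least 10 UMIs were found in 4.98% of thinned HaloTag-70R cells, 1.62% of HaloTag-52R cells and 0.0583% of HaloTag-25R cells, and in 0.150% to 0.590% of Dendra2 cells. The top 10% of cells held 54.6% of the CTSL UMIs in HaloTag-70R and 58.8% in HaloTag-52R, against 47.7% to 51.4% elsewhere. CTSL was seen in 63.2% of thinned HaloTag-70R cells and in 34.5% to 46.7% of cells elsewhere (81.8% and 68.3% to 78.3% before thinning).

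CD63 was seen in 94.0% to 99.4% of thinned cells. Across cells of a library its count correlated with the sum of the other 42 genes at a Spearman rho of 0.30, 0.31 and 0.36 in HaloTag (3433, 3644 and 4460 cells) and 0.14, 0.18 and 0.21 in Dendra2 (3020, 2713 and 2662 cells). For NPC2 the values were 0.26, 0.26 and 0.35 against 0.10, 0.12 and 0.13, and for SQSTM1 0.31, 0.26 and 0.24 against 0.10, 0.12 and 0.14. These are descriptions of thinned counts of the same cells, all at 5000 UMIs. The levels were higher in HaloTag, and their part in the correlation was not tested. The sum over the 43 genes had a rho of −0.02 to 0.07 with the mitochondrial share and of −0.04 to −0.27 with the depth of the cell before thinning.

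**Figure D4:**
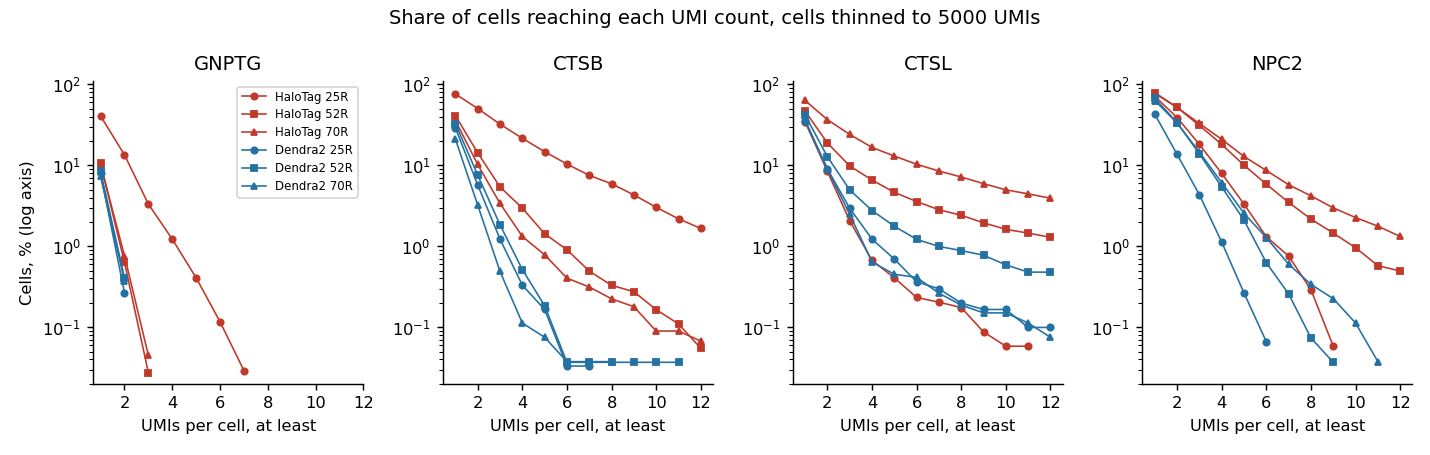
Percentage of cells (log axis) holding at least the given number of UMIs of GNPTG, CTSB, CTSL and NPC2, after thinning every cell to 5000 UMIs, with 1 line per library, red for HaloTag and blue for Dendra2. GNPTG and CTSB lines of HaloTag-25R lie above the others at every count, and 4.98% of HaloTag-70R cells hold at least 10 UMIs of CTSL.

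Transcription in bursts was read from the authors' deposited kinetic tables. They are read here as a beta-Poisson fit, in which a gene switches on and off and makes RNA while it is on. The parameter K of that fit is taken here as the burst frequency and the fitted mean UMIs per cell divided by K as the burst size; the tables give no time unit, and neither the means nor the sizes are scaled for depth. All 6 tables held 42 of the 43 genes, LAMP1 being absent from 1, and 26 of them reached a mean of 0.5 UMIs per cell. Among 4355 such genes limma on log10 values called the burst frequency of 0 of the 26 higher and 1 lower in HaloTag (0.253% and 2.57% of all tested genes) and the burst size of 4 higher and 1 lower (0.528% and 9.85%). The median log10 difference in burst size was 0.03 for the 26 genes and −0.12 for all tested genes. For burst size limma estimated an infinite prior degree of freedom, so that the p-values rest on the spread of all genes and not on that of the gene itself. For burst frequency the prior was 11.8 degrees of freedom beside 2 residual ones, so those p-values also rest mostly on the spread of all genes.

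CTSB had the lowest adjusted p. Its K was 1.34, 1.14 and 1.17 in the HaloTag 25R, 52R and 70R libraries and 1.79, 2.10 and 1.95 in the Dendra2 libraries, and the authors' limits of the HaloTag values (1.06 to 1.41) did not meet those of the Dendra2 values (1.57 to 2.41). Its burst size was 5.56, 1.69 and 1.03 against 0.685, 0.757 and 0.510 UMIs per cell per unit of K, a log10 difference of 0.52 (SE 0.08, limma adjusted p = 1.03e-07). The burst frequency itself differed by −0.20 and missed the threshold (SE 0.05, limma adjusted p = 0.0631). Without HaloTag-25R the burst size difference was 0.33 (SE 0.12, limma adjusted p = 0.147), an estimate that rests on the 52R and 70R pairs.

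GNPTG had a K of 1.36 in HaloTag-25R, with limits of 1.24 to 1.48, and 2.93 to 9.25 in the other libraries, where its low counts left limits as wide as 2.95 to 450. Its burst size was 1.51 in HaloTag-25R and 0.0340 to 0.0847 elsewhere. The differences between tags (frequency −0.36, limma adjusted p = 0.0195; size 0.62, limma adjusted p = 0.00941) were −0.24 and 0.19 without that library, neither past the threshold. GRN had burst sizes of 1.29, 0.535 and 0.486 in HaloTag and 0.268, 0.468 and 0.379 in Dendra2, a log10 difference of 0.28 (SE 0.08, limma adjusted p = 0.0174), and 0.08 without HaloTag-25R. CTSC had burst sizes of 1.95, 1.11 and 2.01 in HaloTag against 2.48, 2.75 and 3.08 in Dendra2, a log10 difference of −0.23 (SE 0.08, limma adjusted p = 0.0452). It was −0.29 (limma adjusted p = 0.177) without HaloTag-25R and, like that of GRN, lost its call with any 1 library left out. With each library centred on its median over genes, which takes out the −0.12 of all genes, it was −0.12 (limma adjusted p = 0.360).

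The K of CTSL was 2.27 in HaloTag-25R and 0.654 and 0.665 in HaloTag-52R and HaloTag-70R, and 1.39, 0.930 and 1.64 in Dendra2. Its burst size was 0.650, 4.58 and 7.20 in HaloTag and 1.18, 2.94 and 1.16 in Dendra2. The log10 difference in size between tags was 0.24 (SE 0.08, limma adjusted p = 0.0350), but −0.033 without HaloTag-70R or Dendra2-70R. Between CTD lengths CTSL was called smaller at 25R than at 52R (−0.62, SE 0.10, limma adjusted p = 3.09e-07) and larger at 70R than at 25R (0.52, SE 0.10, limma adjusted p = 1.68e-04) (0.436% and 0.161% of all genes were). Without HaloTag-25R these differences were −0.25 and 0.14, neither past the threshold, and without HaloTag-70R that of 70R against 25R was 0.11 (limma adjusted p = 0.859). CTSB was called smaller at 70R than at 25R (−0.43, SE 0.10, limma adjusted p = 0.00761, 0.299% of all genes) and GNPTG larger at 25R than at 52R (0.75, SE 0.21, limma adjusted p = 0.0499, 0.276% of all genes), and both calls were lost without HaloTag-25R, at −0.14 and 0.09. With centred libraries CTSB and GRN kept their call between tags (limma adjusted p of 0.00711 and 0.0486), while GNPTG (0.108) and CTSL (0.259) lost it. All 4 burst size calls between CTD lengths were lost with centred libraries (limma adjusted p of 0.221 to 0.342). The burst frequency of 0 of the 26 genes was called between CTD lengths by limma, where 0% and 0.0459% of all genes were higher and lower at 25R than at 52R, 0% and 0% at 70R than at 52R, and 0.023% and 0% at 70R than at 25R. Burst size of 0 of the 26 was called between 70R and 52R (0% and 0.0459%).

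**Figure D5:**
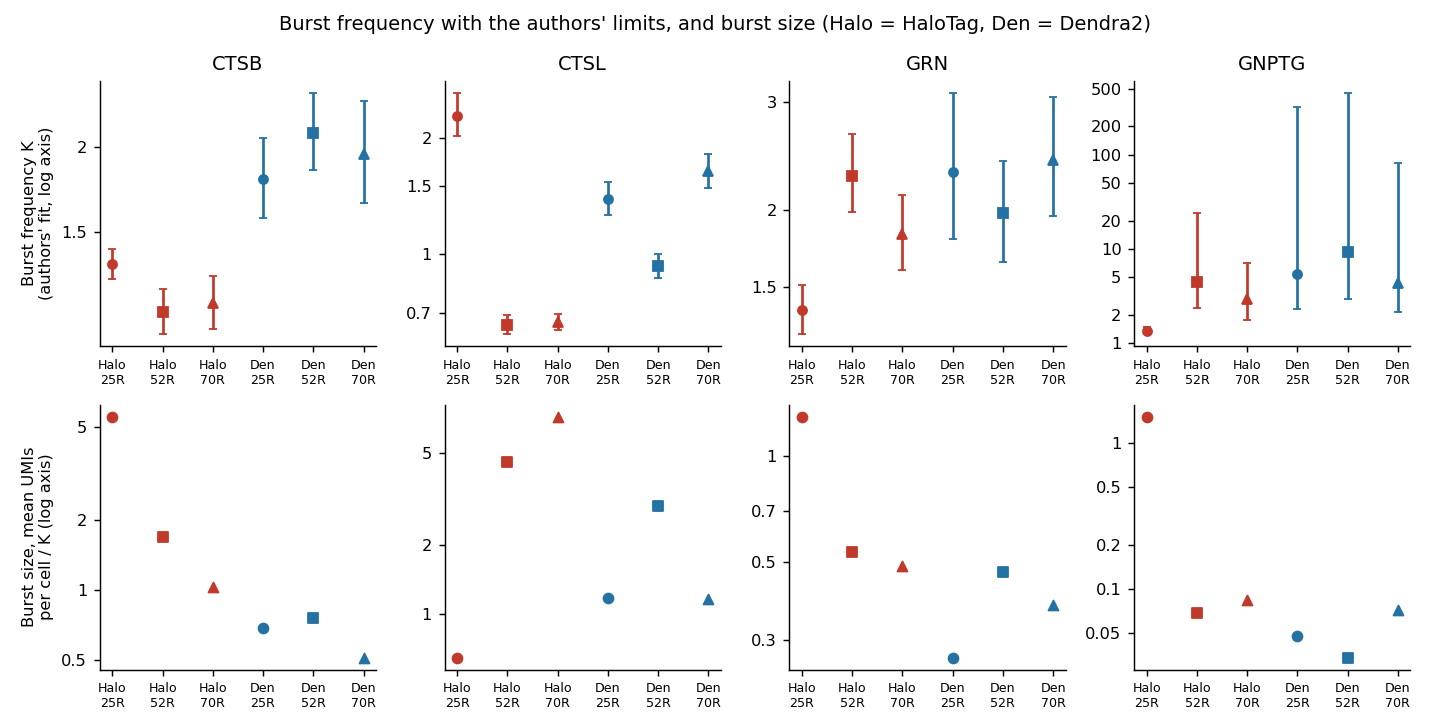
Burst frequency K with the lower and upper limits the authors deposited (top row) and burst size, the fitted mean UMIs per cell divided by K (bottom row), for CTSB, CTSL, GRN and GNPTG in the 6 libraries, all on log axes, with red for HaloTag and blue for Dendra2. The K of CTSB is 1.14 to 1.34 in HaloTag and 1.79 to 2.10 in Dendra2, and GNPTG has a burst size of 1.51 in HaloTag-25R alone.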

How the data were processed

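The authors deposited UMI counts per gene and cell barcode for 6 libraries. The matrix headers name Cell Ranger 6.1.2 (per the file headers), with the build GRCh38 and bcl2fastq named in the submitters' processing notes; the 2 runs of each HaloTag library are merged, per the labels. They also deposited tables of kinetic parameters of another kind: a mean and K, each with lower and upper limits, per the column headers. These are read here as values of a beta-Poisson fit, with the program not given in the sources used here. A barcode was kept as a cell at 500 or more genes and 20% or fewer mitochondrial UMIs (2.01% to 3.03% of barcodes removed), and rows of the tag sequences were left out. No doublet caller was run, and free RNA was not removed. UMIs were summed per library and fitted with edgeR 4.0.16 (filterByExpr by tag, TMM, estimateDisp, robust glmQLFit, design tag + CTD length), with DESeq2 1.42.0 as an alternative. Levels are TMM-scaled CPM, pair differences use log2 CPM with a prior count of 2, and mean ± SD are over the 3 libraries of a tag. UMIs count 3' ends, so levels are not divided by transcript length. Log10 burst values were fitted with limma 3.58.1 (trend). The edgeR and limma fits were tested on simulated data. Binomial intervals are exact and cover counting error only. Gene positions come from GENCODE 44. With 1 library per genotype, p-values measure disagreement between lines of 1 series, moderated by the spread of all genes. The genes and gene lists were chosen with earlier results of these data known. Named with values were members past a threshold in any comparison and, per comparison, the 6 with the largest absolute edgeR log2 difference at a mean of 10 CPM or more; other members are given by role; of the wider list, those past the threshold and the 3 largest per direction between tags. Some genes that these rules name are not reported here. Alternatives were DESeq2, its size factors, library totals, no filter on low counts, stricter cell filters, cells of 10000 to 20000 UMIs, the tag alone, leaving out each library, and a fit without robust moderation, the last chosen after seeing the data.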

Additional observations from a re-analysis of the deposited data

Results flagged for a closer look

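The same CTD contrast went in opposite directions in the HaloTag and the Dendra2 lines for 2 of the 43 genes, by at least 0.5 on the log2 scale in each. CTSL was higher at 70R than at 52R in HaloTag (log2 difference 1.04) and lower in Dendra2 (−0.605). CTSF, another cysteine protease, was lower at 70R than at 25R in HaloTag (−0.562) and higher in Dendra2 (0.506), at levels of 5.33 to 15.9 CPM. Each value compares a single pair of libraries, so the difference between tags was not tested.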

How the results depend on the processing

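The summed share of UMIs and the median log2 difference between tags kept their direction under every alternative run, the median at 0.36 to 0.51, and at 0.31 to 0.45 with 1 library left out. With library totals the median of all genes moved from 0.03 to 0.11. The count of the 43 genes called between tags depended on the method: 0 by edgeR, 10 by DESeq2, 2 with library totals (98 genes in all), 5 without a filter on low counts (408 in all), 1 with the tag alone (29 in all), and 0 to 0 with 1 library left out. DESeq2 called 1 gene for 25R against 52R and 2 for 70R against 25R; leaving out libraries gave 0 to 2 calls in each and 0 to 0 for 70R against 52R, with medians of −0.0927 to 0.34, −0.31 to 0.10 and −0.15 to 0.0798 for 25R against 52R, 70R against 25R and 70R against 52R. The 2 calls came without Dendra2-25R (464 and 493 genes in all). The burst frequency call count was 0 with all genes of finite value and 0 with centred libraries, and 0 to 1 with 1 library left out. The burst size count was 0 with all genes of finite value, 4 with centred libraries and 1 to 2 with 1 library left out. With centred libraries CTSB and GRN kept their call and GNPTG, CTSL and CTSC lost it. The rest of those 4 were genes not called before centring, so the similar count does not mean that the same genes were called. The difference between tags changed sign for 3 of the 43 genes under some setting: GUSB (−0.000838 by DESeq2, −0.00079 with its size factors, −0.0172 without a filter, and −0.15 to 0.26 with 1 library left out), TFEB (−0.24 in cells of 10000 to 20000 UMIs) and ATP6V0D1 (−0.0781 to 0.21 with 1 library left out). With 1 library left out, GNPTG ranged from −0.0159 to 2.58 and CTSB from −0.0556 to 1.71 for 25R against 52R, and GNPTG from −2.59 to 0.00516 for 70R against 25R, the values near 0 being those without HaloTag-25R. For 70R against 52R, CTSL ranged from −0.78 (without HaloTag-70R) to 1.20, CTSB from −1.08 to 0.13 (without Dendra2-52R) and GPNMB from −0.0867 (without Dendra2-70R) to 0.88. The log10 burst size of CTSL between tags ranged from −0.0334 (without either 70R library) to 0.49. Of the single-gene values with 1 library left out, 371 kept their direction and side of the threshold, 37 lost the call, 4 gained one and 14 changed sign; under the other alternatives these were 447, 18, 21 and 4. With all libraries edgeR called 0 of the 43 genes in any comparison, so every lost call was of a burst value. Most values that kept their side had no call to lose, and the counts do not show that the burst calls were stable. The cause of these changes was not tested. The replicate number is 1 for every library and pairs nothing, while the fit itself compares tags within each CTD length. CTSK rests on 20 to 42 UMIs per library.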
